A study of Homo sapiens with 2 samples.

Results

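The clustered histone genes encode the linker histone H1 and the core histones H2A, H2B, H3 and H4 in many near-identical copies. A gene counted as a member when the RefSeq accession of an array probe mapped to a current symbol H1-1 to H1-6, or to H2AC, H2BC, H3C or H4C followed by digits. Of 19061 named genes with a probe, 65 were members, with 76 of the 42402 probes measured on both arrays. The family was chosen by a measured value of these same arrays, the signal ratio of H3C1, which was the lowest of all named genes among probes detected in both conditions. The H3C1 ratio and the ratios of the other members are therefore given as descriptions, and no test was made on them.

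SBC-3 cells, an adherent small-cell lung cancer (SCLC) line, were transfected with #1 siHOTAIR, which targets the long noncoding RNA HOTAIR. Control cells received siGFP, directed at green fluorescent protein. Both groups shared the cell line and the transfection, and differed by label in the siRNA. Each condition had 1 RNA sample on 1 one-colour Agilent array, so array, culture and siRNA cannot be told apart and no P-value was computed. The comparison asks how the histone genes stood in cells given #1 siHOTAIR relative to control cells. The paper reports that its other HOTAIR siRNAs also lowered HOTAIR but did not reduce proliferation or invasiveness. Those siRNAs were not on these arrays, so loss of HOTAIR and other effects of #1 siHOTAIR cannot be told apart.

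Clustered histone genes are transcribed mainly in S phase, when newly made DNA has to be packed into nucleosomes. Their transcripts lack introns and, unlike nearly all other mRNAs, end in a stem-loop bound by SLBP in place of a poly(A) tail, whereas variant histones such as H3.3 and H2A.Z come from polyadenylated transcripts made throughout the cell cycle. Most members lie in a cluster on chromosome 6, with a smaller set on chromosome 1, and many H2A and H2B genes stand head to head around a shared promoter. The labelling kit primes from an oligo-dT primer, so signals here depend on the polyadenylated or internally primed fraction of these transcripts, and the effect of that on the ratios was not tested.

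The shared promoter build of the family is shown by 3 sequences from RefSeq (GRCh38.p14), chosen because they belong to the member with the lowest ratio, to a neighbour of the same class with nearly equal signals in both conditions, and to an H2A and H2B pair whose partners had unequal ratios. Each is printed 5′ to 3′ on the strand of the named gene, ending at the base before its start. H3C1 (chr6:26020301-26020450, + strand) and H3C2 (chr6:26032100-26032249, - strand) are shown for the 150 bases before the start. For H2BC21 (chr1:149886683-149886917, - strand) the 235 bases between its start and that of H2AC20 are shown. Capitals mark the TATA box (TATAAA), the CCAAT box and the octamer (ATTTGCAT) on either strand.
H3C1: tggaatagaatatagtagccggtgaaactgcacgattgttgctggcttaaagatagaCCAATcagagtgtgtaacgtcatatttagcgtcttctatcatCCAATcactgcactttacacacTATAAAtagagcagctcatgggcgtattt
H3C2: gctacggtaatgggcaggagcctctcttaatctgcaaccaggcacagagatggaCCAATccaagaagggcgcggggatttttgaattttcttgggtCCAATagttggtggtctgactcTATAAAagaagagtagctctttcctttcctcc
H2BC21: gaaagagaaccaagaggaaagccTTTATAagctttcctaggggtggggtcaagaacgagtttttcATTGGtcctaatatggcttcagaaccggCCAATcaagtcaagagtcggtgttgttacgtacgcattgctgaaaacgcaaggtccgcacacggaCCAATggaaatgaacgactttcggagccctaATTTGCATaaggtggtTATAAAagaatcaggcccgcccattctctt

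H3C1 and H3C2 both hold 2 CCAAT boxes followed by 1 TATA box in these 150 bases. The stretch between H2BC21 and H2AC20 holds 2 TATA boxes, 1 facing each gene, together with 3 CCAAT boxes and 1 octamer. RefSeq promoters, 300 bases long with 250 before and 50 after the start, matched 60 of the 65 member genes on the array, and 68 promoters of 64 clustered histone genes in all. The letters TATAAA were present in 45 of these 68 promoters (66.2%), against 11.5% of all 35116 promoters of the same length. CCAAT, searched on both strands like the others, was present in 58 of 68 (85.3%) against 34.6% of all promoters. It stood in every promoter of the H1, H2A, H2B and H3 genes matched, and in 3 of 13 H4 promoters. The octamer ATTTGCAT, the sequence to which the factor POU2F1 (OCT1) is known to bind in H2B promoters, was present in 27 of 68 (39.7%) against 1.77% of all promoters. These were 15 of 20 H2B promoters, 11 of 16 H2A promoters and 1 of 13 H3 promoters. In 11 head-to-head H2A and H2B pairs the starts lay 194 to 248 bases apart, so both windows hold the stretch between them. A box in that stretch was counted once for each partner, for the octamer as for TATAAA and CCAAT. The search was for exact letters only and is a description of the windows.

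The arrays differed little as a whole. Each held 58717 spots that were not controls, of which 393 (#1 siHOTAIR) and 375 (siGFP) were outliers and left out, and the 75th percentile of the signal, to which every array was scaled, was 650.3 and 629.9. The 24117 probes with 50% or more of their spots well above background on either array entered the comparison, and 21428 of them met this on both. HOTAIR itself, the siRNA target, was measured by 1 probe with 1 spot on each array. Its signal was 107.8 after #1 siHOTAIR and 243.9 after siGFP, a log2 ratio of -1.22 (measurement SD 0.20), or -0.76 with normexp background correction. Of the SCLC lineage markers, YAP1, NEUROD1 and DLL3 were above background on both arrays, and INSM1, POU2F3 and SYP on neither. CHGA (72.2 and 10.2) and 1 probe of NCAM1 (25.5 and 7.2) were above it on the #1 siHOTAIR array alone. The epithelial genes KRT8 and KRT18 were above background on both arrays, EPCAM (9.2 and 25.1) on the siGFP array alone and CDH1 on neither. Set against the lowest signal well above background on the dim array, CHGA was 2.44-fold higher after #1 siHOTAIR, and neither NCAM1 nor EPCAM showed a difference. With normexp background correction no SCLC lineage marker was at least 2-fold higher. Among 4 markers of other cells, DCN and PECAM1 were on neither array above background, and COL1A1 (832 and 414) and 1 probe of PTPRC (106 and 61.0) were above it on both.

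Of the 76 histone probes, 68 were compared, 67 of them above background on both arrays, and they covered 59 genes. Neither array gave a signal well above background for the single probes of H1-1, H1-6, H2AC1, H2BC1, H2BC6 and H4C7, or for 1 probe each of H2BC18 and H2BC21. H1-1, H1-6, H2AC1 and H2BC1 are histone genes known for expression in testis or in few tissues. The annotation names 83 clustered histone genes, 13 of them pseudogenes, and 5 that are not pseudogenes (H2AC11, H2AC18, H2BC12L, H3C14 and H4C14) had no matched probe.

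Clustered histone signals were nearly equal in both conditions, apart from H3C1. The median log2 ratio of #1 siHOTAIR over siGFP over the 68 probes was 0.04, with quartiles of -0.10 and 0.12 and a range from -5.21 to 0.57, against a median of 0.01 and quartiles of -0.23 and 0.24 over all probes compared. The median measurement SD of the member ratios, taken from the spread of probes spotted 10 times on the same array at the same signal, was 0.07. Variation between cultures is no part of this SD. Ratios lay within 0.25 of 0 for 57 of the 68 histone probes (83.8%) and for 51.8% of all probes. Above 0 lay 41 of the 68 (60.3%) and 51.7% of all probes. Histone probes were bright, and among the 4331 probes whose brighter array lay more than 2 log2 units above the 75th percentile the shares were 50 of 53 histone probes (94.3%) and 68.7% of all.

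No histone probe was at least 2-fold higher after #1 siHOTAIR, where 3.3% of all probes compared were, and 2 of 68 were at least 2-fold lower, where 4.1% of all were. Among probes above background on both arrays the counts were 0 of 67 higher (1.5% of all) and 1 of 67 lower (1.54% of all). Among the bright probes they were 0 of 53 higher (0.623% of all) and 1 of 53 lower (0.623% of all). With 1 probe per gene, 0 of 59 member genes were higher, against 2.74% of named genes, and 1 was lower, against 3.41%. The probe lower by these measures in each set was that of H3C1, by whose ratio the family was chosen, and the second among all probes compared was a dim probe of H2BC18.

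**Figure D1:**
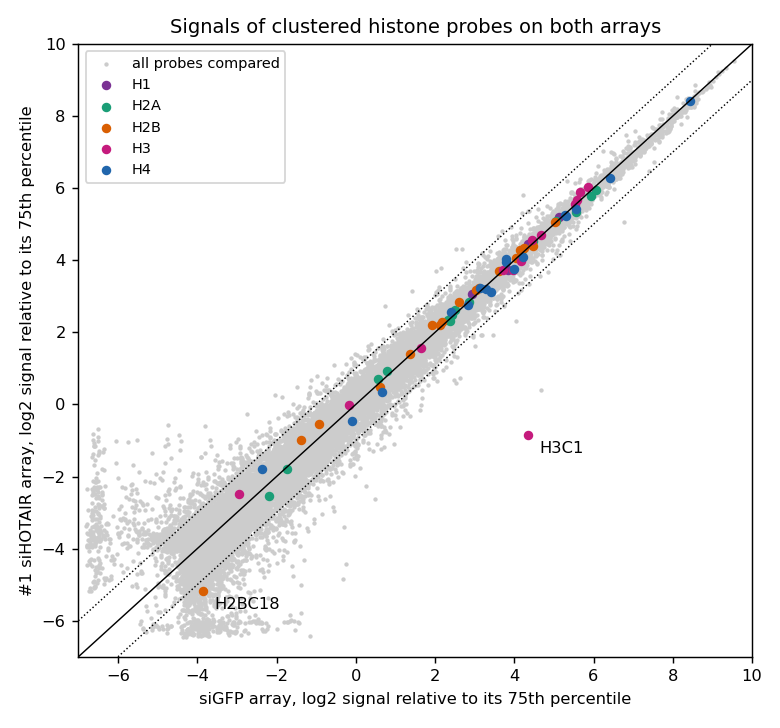
Scaled log2 signal of each probe on the siGFP array (x axis) and on the #1 siHOTAIR array (y axis), each relative to the 75th percentile of its array, with all 24117 probes compared in grey and the 68 clustered histone probes coloured by class. The solid line marks equal signals and the dotted lines 2-fold differences; the H3C1 probe lies far below the line at a bright siGFP signal, the labelled H2BC18 probe is dim, and the other 66 histone probes lie between the dotted lines.

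H3C1, the first H3 gene with a probe along chromosome 6, encodes H3.1, the replication-dependent H3 protein that several other H3C genes encode as well. Its 1 probe, for transcript NM_003529, had 1 spot on each array. The signal was 360 after #1 siHOTAIR and 12873 after siGFP, which gave a log2 ratio of -5.21 (36.9-fold, or 97.3% lower). The measurement SD at these signals was 0.10, and the scanner software's own error for the spot gave an SD of 0.21. The pixel medians before background correction were 531 and 15198, so the difference was present in the uncorrected signal. It was the lowest ratio among the 21428 probes above background on both arrays, ahead of a probe for a transcript without a matched name (865 and 16178, log2 ratio -4.27, 1 spot) and TUBA4A, a tubulin gene (106 and 880, log2 ratio -3.10, 2 spots). Over the other scalings and background corrections tried, the H3C1 log2 ratio ranged from -5.23 to -4.89.

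The spot itself gave no flag on either array. Its width in pixels was 25.1 (#1 siHOTAIR) and 26.4 (siGFP), against a median of 27.1 over all spots of either array. The 59 spots above background within 5 rows and 5 columns of it had a median log2 ratio of -0.02. Their ratios ranged from -2.18 to 1.30, with 4 at least 2-fold lower and 1 at least 2-fold higher. Of all probes above background on both arrays, 1.54% were at least 2-fold lower and 1.5% at least 2-fold higher. Lower values were thus more frequent among these neighbours than over the array, and the reason was not tested. Among bright probes with 1 spot, 2 of 2830 were at least 4-fold lower after #1 siHOTAIR, H3C1 being 1 of them. Among bright probes with 2 spots, none of 1312 was. Paired spots of one bright probe on the same array were compared only where neither spot was flagged as an outlier. These pairs did not differ by 4-fold, in 1298 pairs (#1 siHOTAIR) and 1256 pairs (siGFP), and differed by at least 2-fold in 2 and 1 pairs. Pairs with a flagged spot were left out, so the counts do not cover them. With a single spot on a single array per condition, whether the H3C1 value came from the RNA or from the spot was not tested.

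**Figure D2:**
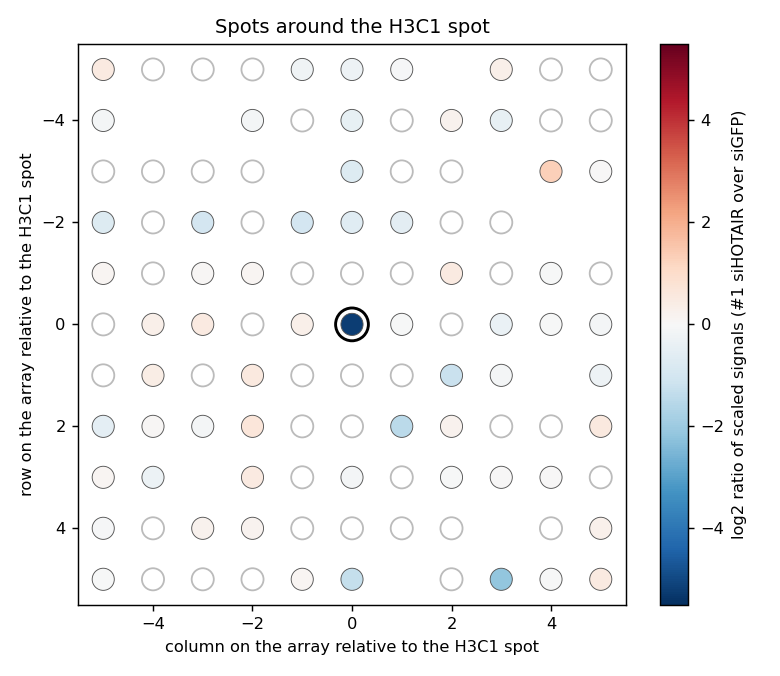
Map of the spots within 5 rows and 5 columns of the H3C1 spot (ringed, at 0 on both axes), coloured by their log2 ratio of scaled signals, #1 siHOTAIR over siGFP; open circles are spots not well above background on both arrays or marked as outliers, and gaps are control spots. The 59 coloured neighbours had a median log2 ratio of -0.02, with 4 at least 2-fold lower, and the ringed spot stood at -5.21.

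The remaining H3 genes, which supply the same class of protein, did not share the H3C1 value. H3C2 had signals of 30588 after #1 siHOTAIR and 29209 after siGFP, a log2 ratio of 0.02 (SD 0.05). The promoter stretches of H3C1 and H3C2 printed above hold the same boxes in the same order, and any link of these boxes to the ratios was not tested. H3C10, the H3 gene nearest to 0, had 8686 and 8337 on its first probe (log2 ratio 0.01, SD 0.07) and 648.3 and 560.1 on its second (0.16, SD 0.11). The lowest of the others was H3C3 with 8684 and 9840 (log2 ratio -0.23, SD 0.07). The highest was H3C11, a dim probe with 117 and 82.0 (0.46, SD 0.25). H3C13 and H3C15, which lie on chromosome 1 and encode H3.2, had 42252 against 36783 (0.15, SD 0.07) and 38849 against 31655 (0.25, SD 0.05), with 0.25 on each of the 2 spots of H3C15. The median over the 13 H3 probes was 0.03, and 0.06 without H3C1, with 9 probes above 0. With scaling to the median of the detected probes the H3 median lay just under 0 (-0.00096).

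H4, which pairs with H3 in the nucleosome core, was the class with the lowest median, -0.09. Above 0 lay 5 of its 17 probes, beside 51.7% of all probes compared. This direction depended on the scaling: when the arrays were scaled to the spike-in RNA, which moved the median of all probes from 0.01 to 0.16, the H4 median was 0.06. H4C1, the neighbour of H3C1 on chromosome 6, was measured by 2 probes, with 472.8 and 589.7 on one (log2 ratio -0.36, SD 0.11) and 5622 and 6666 on the other (-0.29, SD 0.08). Both probes of H4C1 were thus lower after #1 siHOTAIR by a similar amount, well short of the 2-fold limit. H4C13 had 50807 and 53367 on one probe (-0.12) and 819.8 and 1003 on the other (-0.34). H4C4 had 8857 and 9970 (-0.22) and 11081 and 11786 (-0.13), and H4C12 had 4386 and 4519 (-0.09) and 24669 and 24579 (-0.04). All 8 probes of these 4 genes lay below 0, but both of H4C12 and 1 each of H4C13 and H4C4 lay above 0 when scaled to the spike-in RNA, and 1 of H4C12 also with quantile normalization and with no scaling. H4C3, the H4 gene nearest to 0, had 224385 and 219266 (-0.01). The 2 spots of H4C9 disagreed, with 6989 and 5733 on one (0.24) and 5112 and 6581 on the other (-0.41), so its mean of -0.09 rests on spots that differ by 0.65.

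The H4 genes outside chromosome 6 had ratios above 0. H4C15 on chromosome 1 had 10630 after #1 siHOTAIR and 8743 after siGFP (log2 ratio 0.24, SD 0.05). H4C16, alone on chromosome 12, had 195 and 179 on its 2 spots after #1 siHOTAIR and 128 and 116 after siGFP (0.57, SD 0.14), the highest ratio of any member compared, with 0.56 and 0.58 for the separate spots. On chromosome 6, 3 of 15 H4 probes lay above 0.

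H2B, which forms a dimer with H2A, had the highest class median, 0.09, with 14 of 18 probes above 0 (51.7% of all probes compared were). H2BC10, the H2B gene nearest to 0, had 10854 and 10460 (log2 ratio 0.01, SD 0.07). H2BC12 was measured by 2 probes with 2 spots each. Its first probe gave 13978 and 12537 after #1 siHOTAIR against 12324 and 11602 after siGFP (0.10, SD 0.05), and its second 8833 and 8013 against 7811 and 7531 (0.09, SD 0.05). All 4 spots of H2BC12 were therefore slightly higher after #1 siHOTAIR. H2BC26 had 437 and 461 on its 2 spots against 318 and 342 (0.40, SD 0.09), and H2BC21 had 316 and 348 against 245 and 243 (0.40, SD 0.10). These were the highest H2B ratios, and the spots of each are repeats of 1 RNA sample per condition. H2BC11, at 0.28, had spots that disagreed, with 3015 against 2063 (0.50) and 2928 against 2733 (0.05).

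H2BC18 gave different values on its 3 probes. The probe for NM_001161334 had 5852 after #1 siHOTAIR and 5141 after siGFP (log2 ratio 0.14, SD 0.08). A probe for NM_001024599 had 17.9 and 43.9 and was above background on the siGFP array alone, and its own dim signals give a log2 ratio of -1.34. Set against the lowest signal well above background on the #1 siHOTAIR array, it was 1.22-fold lower. With normexp background correction its log2 ratio was -0.26. The remaining probe for that transcript was above background on neither array, with 16.7 and 10.5. The lower value of H2BC18 thus rested on 1 spot near background.

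H2A ratios had a median of 0.03, and 10 of 16 probes lay above 0. H2AC8, the H2A gene nearest to 0, had 4708 after #1 siHOTAIR and 4527 after siGFP (log2 ratio 0.01, SD 0.08). H2AC17 had 22075 and 20738 on one probe (0.04, SD 0.07), and on the other 3174 and 3382 against 3166 and 3110 for its 2 spots (0.02, SD 0.06). H2AC6 had 186.6 and 188.4 on one probe (-0.06, SD 0.17) and 3648 and 3390 on the other (0.06, SD 0.08). Both genes were equal between the arrays within the measurement SD. The lowest H2A value was that of H2AC25, a dim probe on chromosome 1 with 111 and 139 (-0.37, SD 0.23), and the next that of H2AC12 with 26237 and 29543 (-0.22, SD 0.07).

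The linker histone H1, which binds the DNA between nucleosomes, had 4 of 6 genes compared, with a median of 0.09. H1-2, the nearest to 0, had 24354 and 23307 on its 2 spots after #1 siHOTAIR and 23034 and 21322 after siGFP (log2 ratio 0.06, SD 0.05). H1-4 stood at 0.11, H1-5 at 0.13 and H1-3 at -0.10. No class median was further than 0.10 from 0, and the classes overlapped in the range of their probes. With scaling to the spike-in RNA, 57 of the 68 histone probes lay above 0, and the class medians ran from 0.06 (H4) to 0.24 (H2B). All 24117 probes compared had a median of 0.16 there, up from 0.01. Histone probes had a median 0.03 above that of all probes, as at the main scaling. The count of 57 therefore does not by itself show a rise of the histone genes relative to other probes.

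**Figure D3:**
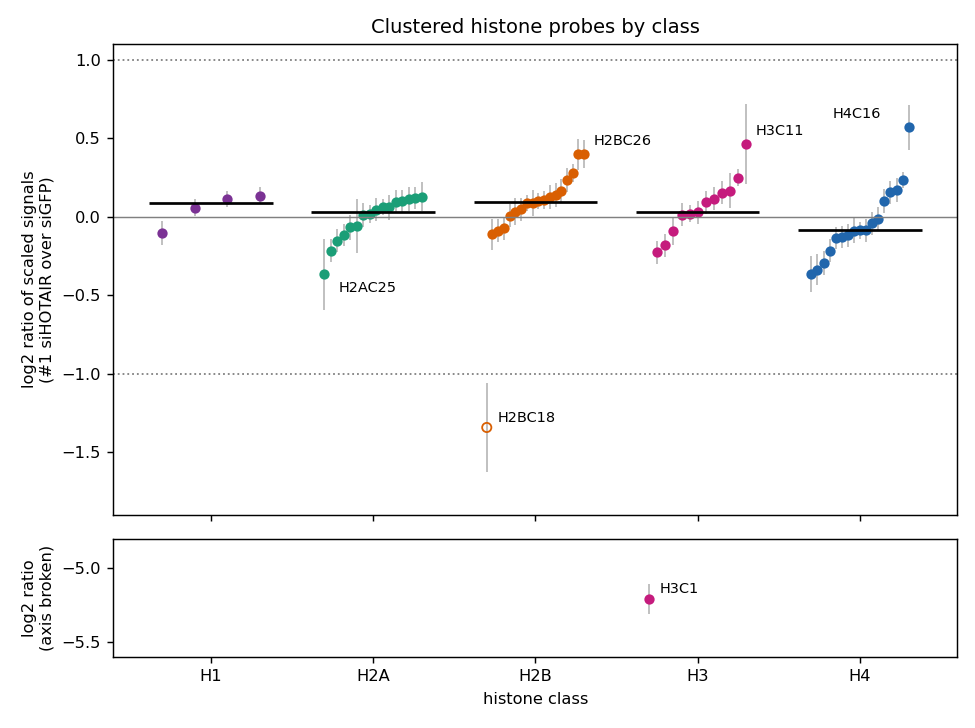
Log2 ratio of scaled signals, #1 siHOTAIR over siGFP, of each of the 68 histone probes compared, by class; grey bars are the measurement SD, black lines the class medians, dotted lines 2-fold, and the open circle a probe above background on the siGFP array alone. The axis is broken to show H3C1 at -5.21, while the class medians run from -0.09 (H4) to 0.09 (H2B).

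The difference between the H2B and H4 medians was 0.18, and ranged from 0.10 to 0.20 over the alternatives. It was lowest, 0.10, with the spots of array rows 145 to 384 alone, an alternative added after seeing the data. There the H4 median was -0.01 over 9 probes and the H2B median 0.09 over 11, and the median of all probes was 0.01 as with all rows. The 32 histone spots in rows 1 to 144 had a median of 0.01 and the 53 in rows 145 to 384 a median of 0.09, but these were mostly spots of different probes. Of 17 compared histone probes with 2 spots, 15 had spot ratios that agree within 0.2, and the median distance between the spot ratios was 0.05.

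Along chromosome 6 the low value of H3C1 was not shared by its neighbours. The next genes in order were H4C1 (-0.36 and -0.29), H4C2 with 24239 after #1 siHOTAIR and 24907 after siGFP (-0.09) and H3C2 (0.02). The gene before it, H1-1, was above background on neither array. Over the 56 probes on chromosome 6 the median was 0.01, with 31 above 0, where 51.7% of all probes compared lay. The 11 probes on chromosome 1 had a median of 0.14, with 9 above 0, and of the 12 probes outside chromosome 6, 10 lay above 0. The 3 highest of these, H4C16, H2BC26 and H2BC21, had signals below the 75th percentile of the array in both conditions.

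**Figure D4:**
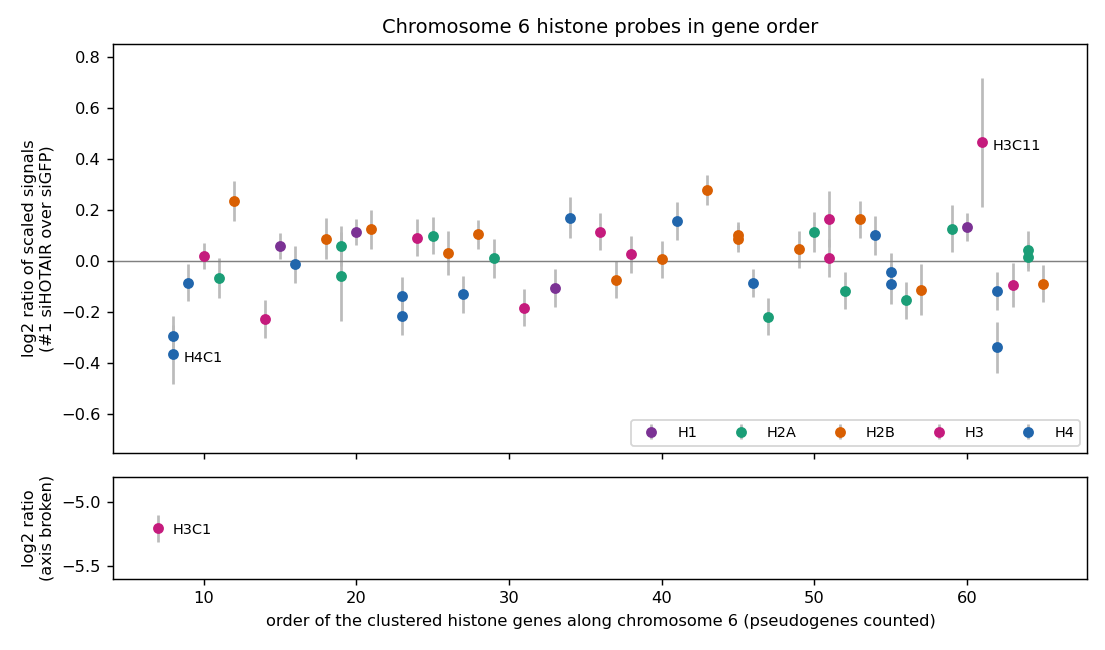
Log2 ratio of scaled signals, #1 siHOTAIR over siGFP, of the 56 histone probes on chromosome 6 (y axis, broken), by the order of the genes along the chromosome (x axis), coloured by class with the measurement SD as grey bars. H3C1 stands at -5.21 between H1-1, which was not compared, and H4C1 at -0.36 and -0.29, and no run of neighbouring genes shares its value.

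Head-to-head H2A and H2B pairs allowed a comparison of genes that share a promoter. The starts lay at most 500 bases apart in 11 pairs, of which 9 had both partners compared. The partners' log2 ratios differed by a median of 0.09, and both lay above 0 in 5 pairs. The H2B partner had the higher ratio in 6 of 9. The largest difference, 0.77, was between H2AC25 (-0.37) and H2BC26 (0.40), the former measured by a single dim spot. The next was between H2AC20, with 15085 after #1 siHOTAIR and 14016 after siGFP (0.06, SD 0.05), and H2BC21 (0.40, SD 0.10), which share the promoter stretch printed above. Gene copies in this family resemble each other closely, and how far a probe also bound transcripts of other copies was not tested.

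Genes that act on histone supply were taken as lists, with 1 probe per gene, beside a median of 0.02 over all 13014 named genes compared. Of 20 genes for transcription and 3′ end processing of histone mRNA, 1 was at least 2-fold higher (2.74% of named genes were), 0 were at least 2-fold lower (3.41% of named genes were), and the median was 0.08. SLBP, which binds the stem-loop, had 6619 and 6879 (log2 ratio -0.10, SD 0.05). NPAT, the coactivator of histone genes in S phase, had 88.3 and 94.3 (-0.14, SD 0.18), and CASP8AP2 (FLASH), needed for their processing, had 129.9 and 111.2 (0.18, SD 0.16). These 3 central factors thus differed by at most 0.18. LSM11, a subunit of the U7 particle that processes histone pre-mRNA, had 83.9 and 22.4 on 1 spot, above background on the #1 siHOTAIR array alone. Set against the lowest signal well above background on the siGFP array, it was 2.84-fold higher at the main background correction. No gene of the list passed 2-fold with normexp background correction. ZNF473, which binds the same particle, had 349.8 and 187.0 (0.86, SD 0.15), and SYMPK, a scaffold of the cleavage complex, had 11979 and 20935 (-0.85, SD 0.05), both short of 2-fold. With scaling to the spike-in RNA 2 genes of the list were at least 2-fold higher, LSM11 and ZNF473.

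Of 20 S-phase genes, 0 were at least 2-fold higher or lower, where 2.74% of named genes were higher and 3.41% lower. The median was -0.12, with 5 genes above 0, where 52.3% of named genes lay. The range ran from -0.58 for PRIM1 (1688 and 2451), a primase subunit, to 0.19 for MCM4 (6252 and 5311), a subunit of the replicative helicase. Of 9 variant or polyadenylated histones compared, 0 passed 2-fold, with a median of -0.11 and a range from -0.43 for H2AX (11744 and 15322), the variant marked at DNA breaks, to 0.43 for H2AJ (6002 and 4319). CENPA, the centromeric H3, had 551 and 476 (0.17, SD 0.08). H3-3B had a log2 ratio of -0.35 on one probe and 0.10 on the other. Of 14 histone chaperones compared, 0 passed 2-fold, with a median of 0.11 and a range from -0.13 (HAT1) to 0.71 for DAXX (2220 and 1319), a chaperone of H3.3. Scaling to the spike-in RNA turned the medians of the S-phase and variant lists to 0.02 and 0.03, so these directions depended on the scaling.

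**Figure D5:**
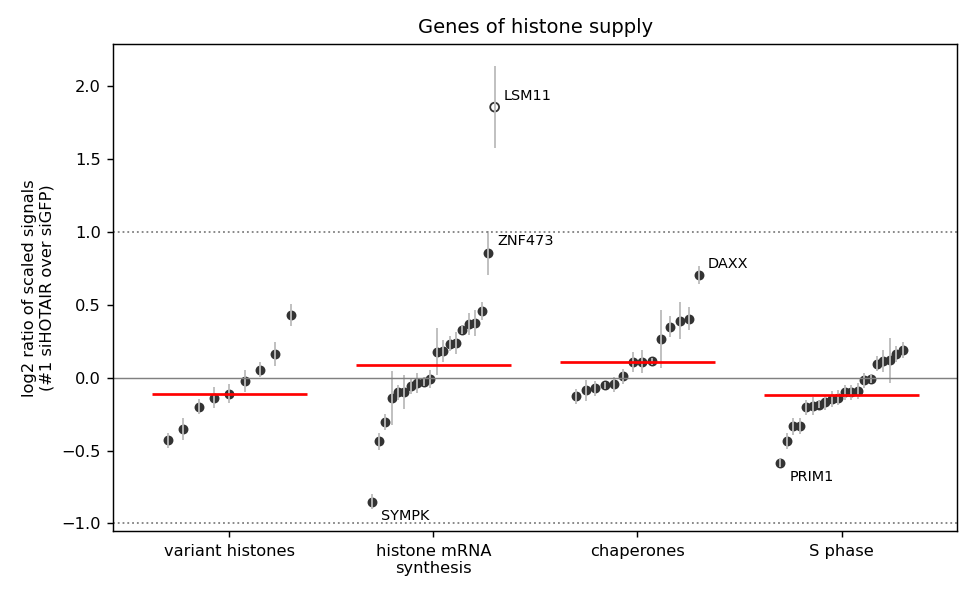
Log2 ratio of scaled signals, #1 siHOTAIR over siGFP, of the genes of 4 lists with 1 probe each; grey bars are the measurement SD, red lines the list medians and dotted lines 2-fold. LSM11 (open circle, above background on the #1 siHOTAIR array alone) is the only gene of these lists past 2-fold at this scaling, to the 75th percentile, and the medians run from -0.12 to 0.11.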

How the data were processed

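RNA levels of SBC-3 cells were measured on 2 arrays, 1 after #1 siHOTAIR and 1 after siGFP, grouped by the sample titles. The authors labelled RNA with Cy3 and extracted the spots with Agilent Feature Extraction 10.10.1.1. The processed signal deposited for each spot was an intensity, background-subtracted and corrected for trends across the slide, and not normalized between the arrays. The series value table deposited by the authors holds an intensity equal to the scanner's background-subtracted signal (largest difference 0; column medians 55.1 and 53.0). The authors' GeneSpring steps were not repeated, and flags of the software (outlier, saturated, well above background) were used as deposited.

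Signals were log2-transformed and scaled by subtracting the 75th percentile of the non-control spots on that array. Outlier spots were left out, no spot was saturated, and replicate spots were averaged. Of all probes, 52.1% (#1 siHOTAIR) and 55.3% (siGFP) were well above background, and the number of arrays limits the precision. For named probes above background on 1 array only, a lower bound was taken against the lowest signal well above background on the dim array. This was 37.3 for #1 siHOTAIR and 28.6 for siGFP, or the probe's own signal if higher. Such a bound holds for the main scaling and background correction alone. The 2-fold counts, shares and medians used the own signals of such probes, except in the alternative with dim signals at their bound. The measurement SD came from probes with 10 spots in 6 bins of signal and was 0.05 for the brightest bin on both arrays, and 0.19 and 0.21 for the dimmest.

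Probe accessions were matched, without versions, to a RefSeq gene table of GRCh38.p14, used for names, gene order and neighbours. The array design refers to hg19, so no gene coordinates are given; promoter coordinates are those of the RefSeq sequences. Probe sequences were not used here. Members with a ratio at or beyond 2-fold, with several probes compared, or nearest to 0 in their class were named with all values, others by range or because they stood out once seen. The members and gene lists were chosen with earlier results of these data known, and 2 genes of the lists are not reported here. With 1 array per condition no test was made. For normexp (limma 3.58.1, R 4.3.3, offset 50) and for uncorrected signals, the median of a spot's pixels was used in place of the mean. Calling of changes was run on simulated data with 4-fold changes in 200 probes, and 200 were recovered. Its only noise was the spread of spots on the same array. It held no variation between cultures or arrays, so it does not show how reliable the 2-fold calls are. Python 3.11.15, numpy 2.4.6, pandas 2.3.3 and matplotlib 3.10.9 were used.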

Additional observations from a re-analysis of the deposited data

How the results depend on the processing

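The median log2 ratio of the clustered histone probes (0.04) lay between 0.01 and 0.08 under all alternatives tried except scaling to the spike-in RNA, added after seeing the data, where it was 0.18. There the median of all probes was 0.16, and the distance between both stayed at 0.03. The count of histone probes at least 2-fold higher was 0, and 1 with no filter on dim probes, where H4C7 entered with signals not well above background on either array. The count at least 2-fold lower was 2, and 1 with normexp background correction, with signals without background correction, with probes above background on both arrays, with dim signals at their bound, with 1 probe per gene, with a threshold of 3-fold and, added after seeing the data, without the H3C1 probe. In the last case the probe counted was H2BC18, and in the others H3C1. Quantile normalization, the median of detected probes, no scaling, the deposited value table (floor 10), outlier spots kept, a threshold of 1.5-fold and, added after seeing the data, rows 145 to 384 left both counts as they were. Of 657 values of single histone probes under alternatives, 578 moved by less than their measurement SD and 79 by more. Some alternatives, such as outlier spots kept, could not move most of these values, so the 578 is no measure of stability. A change of sign was looked for only in the 2 probes past 2-fold, those of H3C1 and H2BC18, and neither changed. Smaller ratios did change sign, such as that of H1-3 (-0.10, and 0.04 with scaling to the spike-in RNA). Leaving out a replicate was not run because each condition had 1 array. No paired analysis was possible because each group had 1 sample and no test was made. Signal over background limits the dim probes, among them H2BC18, LSM11 and HOTAIR.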
